A study of Mus musculus with 4 samples.

Results

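The keratins of simple epithelia, Krt7, Krt8, Krt18 and Krt19, were followed in mouse epiblast stem cells after knockdown of Tox4. They are 4 of the 15429 genes in the table and 4 of its 18 numbered keratin genes. They were chosen by their class and with their FPKM values in Tox4 and Luc esiRNA libraries already known, so their own differences are given as a description, with no p-value, and a count of members past the threshold is no test of them. Polyadenylated RNA was sequenced from the OE7 line, pluripotent cells derived from the post-implantation mouse embryo. There were 2 libraries of cells given esiRNA against Luc, the luciferase control, and 2 of cells given esiRNA against Tox4, which encodes a chromatin-associated HMG-box protein. An esiRNA is a pool of short interfering RNAs cut by an enzyme from a long double-stranded RNA. Both groups carried the Oct4-Gip transgene, a green fluorescent reporter of Oct4, and were at passages 21 to 25. Both were grown on fibronectin in N2B27 medium with Activin A (20 ng/ml) and Fgf2 (12 ng/ml), and both received 1000 ng of esiRNA with 2 µl of lipofectamine. All libraries came from 1 line. Whether replicates were separate cultures is not said in the labels. The p-values below therefore reflect how far these particular libraries scattered, and that scatter may be technical.

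Keratins are the intermediate filament proteins of epithelial cells. A filament is built from pairs of a type I and a type II chain, and a chain without a partner is degraded. Krt8 (type II) and Krt18 (type I) form the filament network of single-layered epithelia and are among the first keratins made in the mouse embryo. Krt7 (type II) and Krt19 (type I) join them in ducts, glands and extraembryonic epithelia.

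The knocked-down gene was measured first, as a check of the labels. Tox4 was at 16.7 and 17.5 FPKM (fragments scaled to gene length and to sequencing depth) in Luc replicates 1 and 2 and at 8.65 and 8.89 FPKM in Tox4 replicates 1 and 2. It fell to a ratio of 0.512 (log2 difference -0.89, SE 0.05, limma adjusted p = 0.00228). The smallest whole reads worked back from FPKM summed to between 12778044 and 19008803 per library. That was 97.7% of the depth implied by the scaling in each library. Of the 12403 genes tested, which averaged 1 FPKM or more, 2.62% were called lower and 1.89% higher after Tox4 esiRNA, 4.51% in either direction (limma on log2(FPKM + 1), Benjamini-Hochberg adjusted p under 0.05). The median log2 difference over all of them was -0.0034. Defining markers of the epiblast were abundant in each library: Pou5f1, which encodes Oct4, lay between 582 and 613 FPKM and Nanog between 193 and 204 FPKM.

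Krt7, Krt8 and Krt18 lie in the type II keratin cluster of mouse chromosome 15, where Krt18 is the type I gene that sits beside Krt8, and Krt19 lies in the type I cluster of chromosome 11 (GENCODE M21, GRCm38). The gene of Krt18 (ENSMUSG00000023043) spans chr15:102028180-102032027 on the plus strand. That of Krt8 (ENSMUSG00000049382) spans chr15:101996698-102004482 on the minus strand, so that the pair is divergent, with 23697 bases between them. Krt7 (ENSMUSG00000023039) spans chr15:101411043-101430313 on the plus strand. Krt19 (ENSMUSG00000020911) spans chr11:100140810-100148665 on the minus strand.

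Promoter stretches are shown for the 3 keratins of chromosome 15, the members that had an entry in the promoter set used. Krt19 had none. Each runs 5′ to 3′ on the strand of its gene, from 250 bases before the RefSeq start to 20 bases from the start on (RefSeq, GRCm38.p6). The stretch of Krt18 is chr15:102027966-102028235 on the plus strand, that of Krt7 is chr15:101412153-101412422 on the plus strand, and that of Krt8 is chr15:102004323-102004592 on the minus strand. The RefSeq starts lie inside the GENCODE genes given above, and the stretch of Krt7 lies wholly inside its GENCODE gene. Positions below are counted from the RefSeq start. Capitals mark matches to an AP-2 motif, a GC box or a TATA box.
Krt18: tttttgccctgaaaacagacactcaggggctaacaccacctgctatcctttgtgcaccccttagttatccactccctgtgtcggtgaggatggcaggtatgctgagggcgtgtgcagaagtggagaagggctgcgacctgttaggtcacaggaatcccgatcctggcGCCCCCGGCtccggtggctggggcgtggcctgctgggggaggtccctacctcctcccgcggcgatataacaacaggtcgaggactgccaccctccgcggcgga
Krt7: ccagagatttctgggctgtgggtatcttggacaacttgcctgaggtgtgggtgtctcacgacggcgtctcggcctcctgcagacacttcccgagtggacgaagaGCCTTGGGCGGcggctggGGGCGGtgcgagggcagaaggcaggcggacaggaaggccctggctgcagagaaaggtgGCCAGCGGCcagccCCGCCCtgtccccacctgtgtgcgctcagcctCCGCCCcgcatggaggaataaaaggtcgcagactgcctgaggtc
Krt8: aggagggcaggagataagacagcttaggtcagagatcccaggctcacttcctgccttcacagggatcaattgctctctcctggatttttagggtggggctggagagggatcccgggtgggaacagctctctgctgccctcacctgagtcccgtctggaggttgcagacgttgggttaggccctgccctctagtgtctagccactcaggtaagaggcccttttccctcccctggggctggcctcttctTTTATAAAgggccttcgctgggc
A total of 7 motifs were searched on both strands: AP-1 (TGANTCA), AP-2 (GCCNNNGGC), the GC box (GGGCGG), the TATA box (TATAAA), the ETS core (CCGGAA), the grainyhead motif (AACNNGTT) and the TEAD motif (GGAATG). Krt18 held 1 AP-2 match, starting 83 bases before the start. Krt7 held 2 AP-2 matches, at 146 and 70 bases before the start, and 4 GC boxes, at 141, 128, 56 and 24 bases, the first of which overlaps an AP-2 match. Krt8 held TATAAA across its RefSeq start, overlapped by the same motif on the other strand. AP-2 matches stood in 14.6% of 27025 RefSeq promoter stretches of this length, the GC box in 34.4% and the TATA box in 13.4%. The letters of AP-1 (7.35% of stretches), the ETS core (13.9%), grainyhead (3.84%) and TEAD (13.5%) were not in these 3 windows. GC content was 61.9% for Krt18, 65.9% for Krt7 and 58.1% for Krt8, against a median of 52.2% over all stretches. A match is a description of the letters and shows neither binding nor a cause of any difference.

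The type I keratins Krt19 and Krt18 were the more abundant members in the control cells and had the largest differences. Krt19, which lacks most of the tail domain of other keratins, was at 77.8 and 80.0 FPKM in Luc replicates 1 and 2 and at 45.7 and 47.7 FPKM in Tox4 replicates 1 and 2. Both Tox4 libraries were low, well under both Luc libraries, and the groups did not overlap. The means were 78.9 ± 1.52 and 46.7 ± 1.36 FPKM (SD, n = 2 each), a ratio of 0.592 and a log2(FPKM + 1) difference of -0.74 (SE 0.04). The reads behind these values were 2407, 1952, 1097 and 991. Their pooled ratio, scaled to depth, was 0.592 with an exact 95% interval of 0.562 to 0.624 that covers counting error only. Of all tested genes, 0.581% had a lower log2 difference than Krt19.

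Krt18, the usual type I partner of Krt8, was at 36.6 and 38.4 FPKM in the Luc libraries and at 25.9 and 28.2 FPKM in the Tox4 libraries. The Tox4 libraries were again the low ones and the groups did not overlap. Its means were 37.5 ± 1.25 and 27.1 ± 1.67 FPKM (SD, n = 2 each), a ratio of 0.722 and a log2 difference of -0.46 (SE 0.05). On 1787 reads with Luc and 1043 reads with Tox4 esiRNA, the pooled ratio had an interval of 0.668 to 0.779. A lower log2 difference was found for 1.81% of tested genes.

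The type II keratins were less abundant and differed by less. Krt8, the partner of Krt18, was at 19.3 and 20.0 FPKM in the Luc libraries and at 15.4 and 16.1 FPKM in the Tox4 libraries, and the groups did not overlap. The means were 19.65 ± 0.495 and 15.8 ± 0.496 FPKM (SD, n = 2 each), a ratio of 0.802 and a log2 difference of -0.30 (SE 0.05). Its reads, 620 and 507 against 384 and 348, gave a pooled ratio of 0.803 (exact 95% interval 0.730 to 0.882). For 4.68% of tested genes the difference was lower than for Krt8.

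Krt7, a type II keratin of ducts and extraembryonic epithelia, was the lowest of the 4 and its groups overlapped. It was at 11.1 and 8.91 FPKM in the Luc libraries and at 7.98 and 9.83 FPKM in the Tox4 libraries. Luc replicate 1 was high, Tox4 replicate 1 was low, and the other libraries were crossed, with Tox4 replicate 2 above Luc replicate 2. The means were 9.99 ± 1.53 and 8.91 ± 1.31 FPKM (SD, n = 2 each), and the log2 difference of -0.15 (SE 0.12) was close to its standard error. The reads worked back, 345 with Luc and 244 with Tox4 esiRNA, gave a pooled ratio with an interval of 0.739 to 1.03. These are the smallest whole reads that the FPKM values allow. A multiple of up to 7 would keep the gene length within the annotated exon bases, and at a multiple of 2 the interval would be 0.777 to 0.983. For Krt8, Krt18 and Krt19 no multiple above 1 would. Without Luc replicate 1 the log2 difference was -0.01, and without Tox4 replicate 1 it was also -0.01. The difference between the Krt7 means was smaller than the SD of either group.

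**Figure D1:**
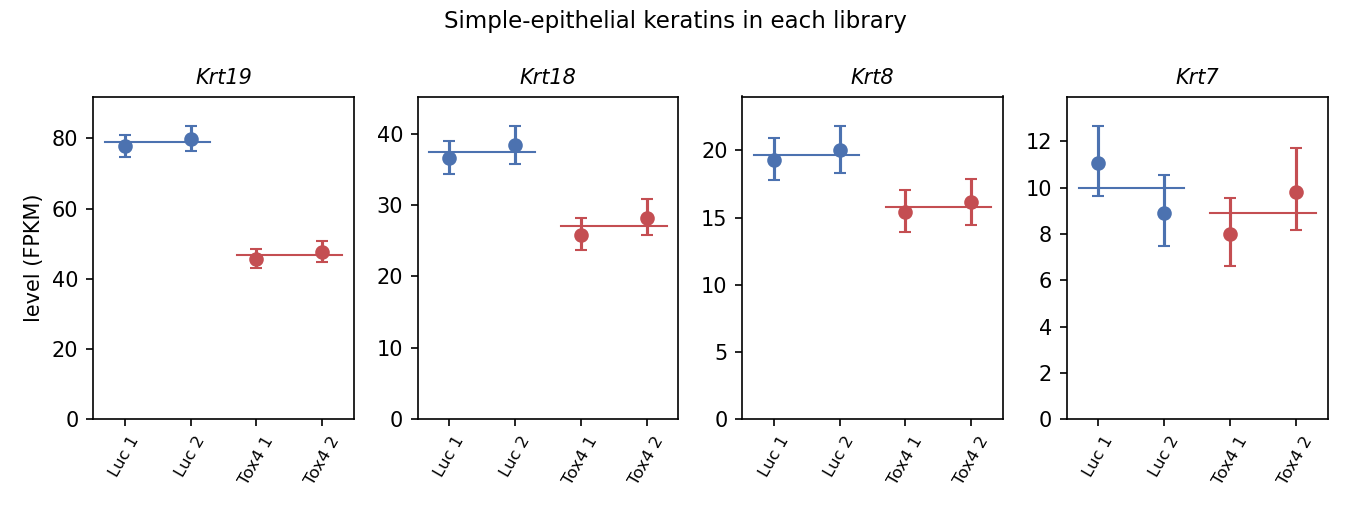
Level of Krt19, Krt18, Krt8 and Krt7 in FPKM in each of the 2 Luc (blue) and 2 Tox4 (red) libraries, each panel on its own linear axis from 0, with exact 95% Poisson intervals of the reads worked back as bars and the group mean as a line. Both Tox4 points lie under both Luc points for Krt19, Krt18 and Krt8, and the Krt7 points of the groups overlap.

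Of the 4 members, 3 were past the threshold, all lower, where 2.62% of all tested genes were called lower and 1.89% higher (4.51% in either direction). Limma-voom on the reads called the same 3 lower, with 5.87% of tested genes called lower and 5.97% higher (11.8% in either direction). Its result for Krt7 depends on the reads used, which may be a multiple of those worked back. For the same 3, both Tox4 libraries lay under both Luc libraries, which held for 26.7% of tested genes, and the reverse held for 25.3%. The members were chosen with this contrast known, so these counts support nothing by themselves. Krt19 was the only member past the threshold without Luc replicate 1, without Luc replicate 2 or with no intensity trend, and Krt8 was not past it without Tox4 replicate 1. The log2 differences stayed below 0 for each member under each setting tried, from -0.72 to -0.77 for Krt19 and from -0.27 to -0.33 for Krt8 as single libraries were left out. In RNA of whole cultures, fewer cells with these keratins and less keratin RNA per cell cannot be told apart.

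**Figure D2:**
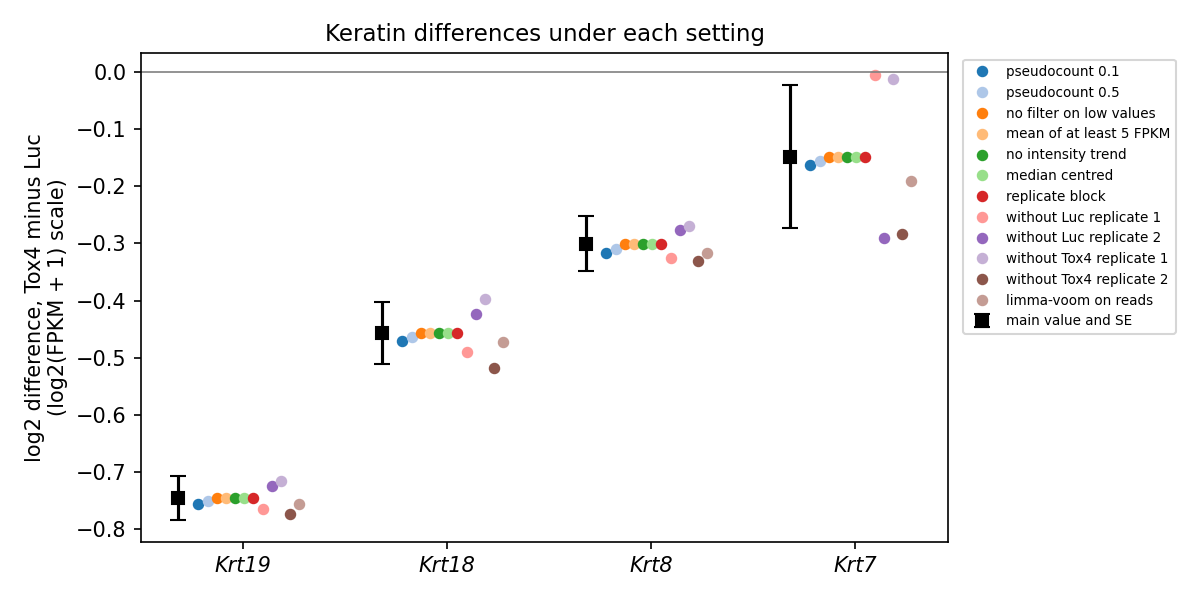
Log2 difference (Tox4 minus Luc, log2(FPKM + 1) scale) of each keratin, with the reported value and its standard error as a black square with a bar and each alternative setting as a coloured point (other pseudocounts and limma-voom are on their own log2 scales). All points lie under 0, and the points of Krt7 without Luc replicate 1 or without Tox4 replicate 1 lie at -0.01.

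The order of the levels was Krt19, Krt18, Krt8, Krt7 in each of the 4 libraries. The lowest library of each gene lay above the highest library of the next, so that neighbours in the order differed beyond their spread. FPKM values divide by a length, and the length they imply was 1590 bases for Krt19, 1373 for Krt18, 1651 for Krt8 and only 980 for Krt7, which was 13.9% of its 7049 annotated exon bases against 84.3% to 95.6% for the others. The level of Krt7 against the others therefore depends on the length used. With reads divided by the length of the longest coding transcript instead, Krt7 was at 2.39 ± 0.366 reads per kilobase, scaled to depth as FPKM is, with Luc and 2.13 ± 0.313 with Tox4 esiRNA. Krt8 was then at 16.6 ± 0.417 and 13.3 ± 0.417, Krt18 at 35.8 ± 1.20 and 25.9 ± 1.59, and Krt19 at 79.6 ± 1.53 and 47.1 ± 1.38 (SD, n = 2 each). The value of Krt7 on this scale would grow with a multiple of its reads. With the reads as worked back, the order was the same in each library. Among all tested genes by mean FPKM, Krt19 stood at the 90.6th percentile, Krt18 at the 79.3rd, Krt8 at the 62.6th and Krt7 at the 43.1st.

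The type I members had the larger differences, and the ratio of type II to type I messages was higher in both Tox4 libraries. The FPKM of Krt7 and Krt8 together, divided by that of Krt18 and Krt19 together, was 0.265 and 0.244 in the Luc libraries and 0.327 and 0.342 in the Tox4 libraries. The groups did not overlap, which for single tested genes was so in 26.7% (lower) and 25.3% (higher). The log2 difference of the ratio was 0.39. It was 0.36 when reads per base of the longest coding transcript were used, where the ratios were 0.167 and 0.162 against 0.210 and 0.212. Type I messages were in excess in each library on both scales.

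Within the classical pair, Krt8 relative to Krt18 was 0.527 and 0.521 in the Luc libraries and 0.596 and 0.571 in the Tox4 libraries. Within type I, Krt19 relative to Krt18 was 2.13 and 2.08 with Luc and 1.77 and 1.69 with Tox4 esiRNA. The groups did not overlap in either ratio. Among single tested genes, both Tox4 libraries lay under both Luc libraries for 26.7% and above them for 25.3%. Krt8 to Krt18 was higher and Krt19 to Krt18 lower in both Tox4 libraries. Krt7 relative to Krt8 was 0.573 and 0.445 against 0.518 and 0.610, where the groups overlapped. The 4 keratins together fell within a narrow band in each group, at 145 and 147 FPKM against 95.02 and 101.9 FPKM, a ratio of 0.674. Krt19 made up 53.7% and 54.3% of that sum with Luc and 48.1% and 46.8% with Tox4 esiRNA. All of these ratios come from the contrast that chose the members and are a description.

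**Figure D3:**
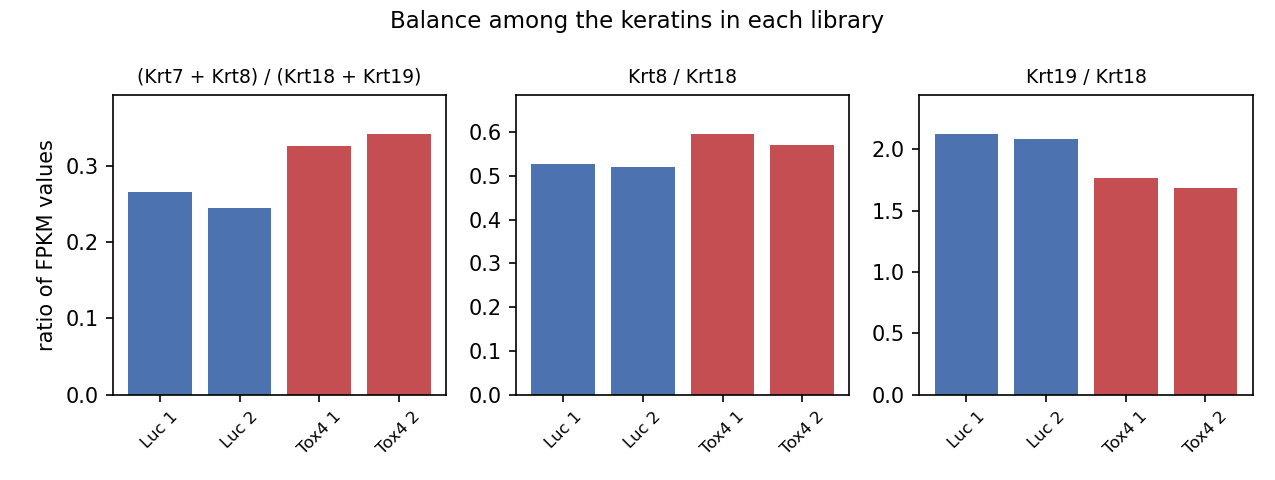
Ratios of FPKM values in each of the 2 Luc (blue) and 2 Tox4 (red) libraries, as bars on linear axes from 0: type II to type I members, Krt8 to Krt18 and Krt19 to Krt18. The first ratio rises from 0.244 and 0.265 to 0.327 and 0.342, and the third is lower in both Tox4 libraries.

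Keratins of stratified epithelia and other keratins, apart from Krt10, were barely present. As worked back, the 14 other numbered keratin genes held 335 reads in the 4 libraries together, against 11725 reads of the 4 members. Of the 14, 9 had fewer than 10 reads. The reads in this paragraph are the smallest whole reads that the FPKM values allow. Only 2 were tested. Krt10, a type I keratin of the differentiating epidermis, was lower: its values were 6.37 and 6.70 FPKM in the Luc libraries and 4.55 and 4.04 FPKM in the Tox4 libraries (log2 difference -0.51, SE 0.08, limma adjusted p = 0.0285). This rested on at least 47 and 39 reads against 26 and 20. The length these imply was 379 of 2114 annotated exon bases, so a multiple of them would also fit. The limma-voom result for Krt10 depends on the reads used. The call ended without Luc replicate 1 (limma adjusted p = 0.143), without Luc replicate 2 (0.167), without Tox4 replicate 2 (0.0505), with no intensity trend (0.064) and in limma-voom on the reads (0.146). Krt1, the type II partner of Krt10, was at 0.918 and 1.55 FPKM against 0.868 and 1.37 FPKM on 61 reads in all (log2 difference -0.07, limma adjusted p = 0.875). Krt222 held 19 and 18 reads in the Luc and 9 and 7 in the Tox4 libraries, and Krt80 held 3 and 11 against 7 and 5. Krt17, a keratin of basal and stressed epithelia, held 13 and 5 against 8 and 8 reads, and none of these 3 reached the minimum for testing.

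The other intermediate filaments, those that are no keratins, gave no call. Of 13 in the table, 11 were tested and limma called 0 of them. An unadjusted p under 0.05 was found for 5, and limma-voom on the reads called 3. Their median log2 difference was 0.01. The share of all tested genes with an unadjusted p under 0.05 is not given here. Such counts, here and below, therefore have no background to be set against. Vim, the intermediate filament of mesenchymal and many undifferentiated cells, was at 188 and 181 FPKM with Luc and at 194 and 207 FPKM with Tox4 esiRNA (log2 difference 0.12, limma adjusted p = 0.188). Lmnb1, a filament of the nuclear lamina, was at 144.0 and 144.1 against 152.0 and 157 FPKM (0.10, limma adjusted p = 0.163).

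Among the junction proteins that anchor keratin filaments, desmosome genes were the ones called. Of 10 tested desmosome and plakin genes, 2 were lower, 0 higher and 8 not past the threshold, with a median of -0.10, while 5 had an unadjusted p under 0.05 and limma-voom called 5. Pkp2, a plakophilin of desmosomes that are not restricted to skin, fell from 32.5 and 32.2 to 25.6 and 25.8 FPKM (log2 difference -0.32, SE 0.04, limma adjusted p = 0.0141). Dsg2, the desmoglein of simple epithelia, fell from 3.86 and 3.80 to 2.52 and 2.38 FPKM (-0.49, SE 0.08, limma adjusted p = 0.0358). The call of Pkp2 ended without Luc replicate 1 (limma adjusted p = 0.105), without Luc replicate 2 (0.0957) and with no intensity trend (0.064). That of Dsg2 ended without Luc replicate 1 (0.198), Luc replicate 2 (0.183), Tox4 replicate 1 (0.0604) and Tox4 replicate 2 (0.0768). Dsp, desmoplakin, which ties keratin filaments to the desmosome, had a log2 difference of -0.35 (limma adjusted p = 0.173) and was named after its value was seen. Of the hemidesmosome list only 2 genes were tested and limma called 0. Itga6, an integrin chain, was at 40.4 and 41.8 against 48.7 and 46.5 FPKM (0.21, limma adjusted p = 0.0529), was the 1 gene with an unadjusted p under 0.05 and was called higher by limma-voom (0.0015). Cd151, a tetraspanin that binds integrins, had a log2 difference of 0.05 (limma adjusted p = 0.571).

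Genes listed for proteins that bind or modify keratins mostly stayed under the threshold. The list also held the Krtcap genes, which are named for keratinocytes. All 20 in the table were tested, of which 3 were lower, 0 higher and 17 not past it, with a median of -0.04, while 4 had an unadjusted p under 0.05 and limma-voom called 3. Sfn, the 14-3-3 sigma protein of epithelial cells, had the largest fall of the list, from 21.1 and 23.1 FPKM to 8.39 and 9.17 FPKM (log2 difference -1.24, SE 0.07, limma adjusted p = 0.00215). Hspb1, a small heat shock protein that associates with keratin filaments, fell from 29.9 and 31.4 to 16.5 and 19.7 FPKM (-0.73, SE 0.08, limma adjusted p = 0.0132). Krtcap3, a keratinocyte-associated membrane protein, fell from 9.43 and 9.07 to 6.79 and 6.18 FPKM (-0.45, SE 0.07, limma adjusted p = 0.026). The calls of Hspb1 and Krtcap3 ended without Luc replicate 1 (limma adjusted p = 0.0598 and 0.166) or Luc replicate 2 (0.0768 and 0.126), and both were at 0.064 with no intensity trend. Sfn stayed past the threshold under each setting tried.

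Of 16 tested transcription factors that regulate simple-epithelial genes, 3 were lower, 0 higher and 13 not past the threshold, with a median of -0.21. An unadjusted p under 0.05 was found for 12, with no share over all tested genes to set beside it. Limma-voom called 6, where it called 11.8% of all tested genes. Fosl2, an AP-1 subunit of the Fos family, fell from 4.78 and 5.09 to 2.81 and 2.88 FPKM (log2 difference -0.63, SE 0.08, limma adjusted p = 0.0169). Jun, another AP-1 subunit, fell from 40.9 and 41.7 to 35.7 and 35.1 FPKM (-0.22, limma adjusted p = 0.0353), and Klf6, a Krüppel-like factor, from 13.1 and 13.5 to 11.2 and 10.7 FPKM (-0.27, limma adjusted p = 0.0481). Without Luc replicate 1 the adjusted p-values in limma were 0.102 for Fosl2, 0.17 for Jun and 0.201 for Klf6, and without Luc replicate 2 they were 0.12, 0.195 and 0.235. Jun and Klf6 were also past the threshold neither without Tox4 replicate 1 (0.0612 and 0.0696) nor without Tox4 replicate 2 (0.0769 and 0.107). With the replicate block they were at 0.0538 and 0.0695, with no filter at 0.0529 and 0.0656, and with no intensity trend at 0.105 and 0.0902.

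Of 15 tested genes of simple epithelia, mostly surface genes, 8 were lower, 0 higher and 7 not past the threshold. An unadjusted p under 0.05 was found for 14, again with no share over all tested genes beside it, and limma-voom called 11. The median was -0.42, against -0.38 for the 4 keratins and -0.0034 for all tested genes. Cdh1, the E-cadherin of adherens junctions, fell from 29.0 and 29.3 to 16.2 and 17.3 FPKM (log2 difference -0.77, SE 0.05, limma adjusted p = 0.00263). Cldn6 and Cldn7, claudins of tight junctions, fell by 0.60 (limma adjusted p = 0.00288) and 0.70 (limma adjusted p = 0.00754) on the log2 scale. Esrp1, an epithelial splicing factor, fell from 5.28 and 5.38 to 3.01 and 2.58 FPKM (-0.74, limma adjusted p = 0.0146). The call of Cldn7 ended without Luc replicate 1 (limma adjusted p = 0.0523), and that of Esrp1 without Luc replicate 1 (0.1) or 2 (0.0981). The list was drawn up with earlier results of these libraries known, so its count is not independent evidence of a direction.

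**Figure D4:**
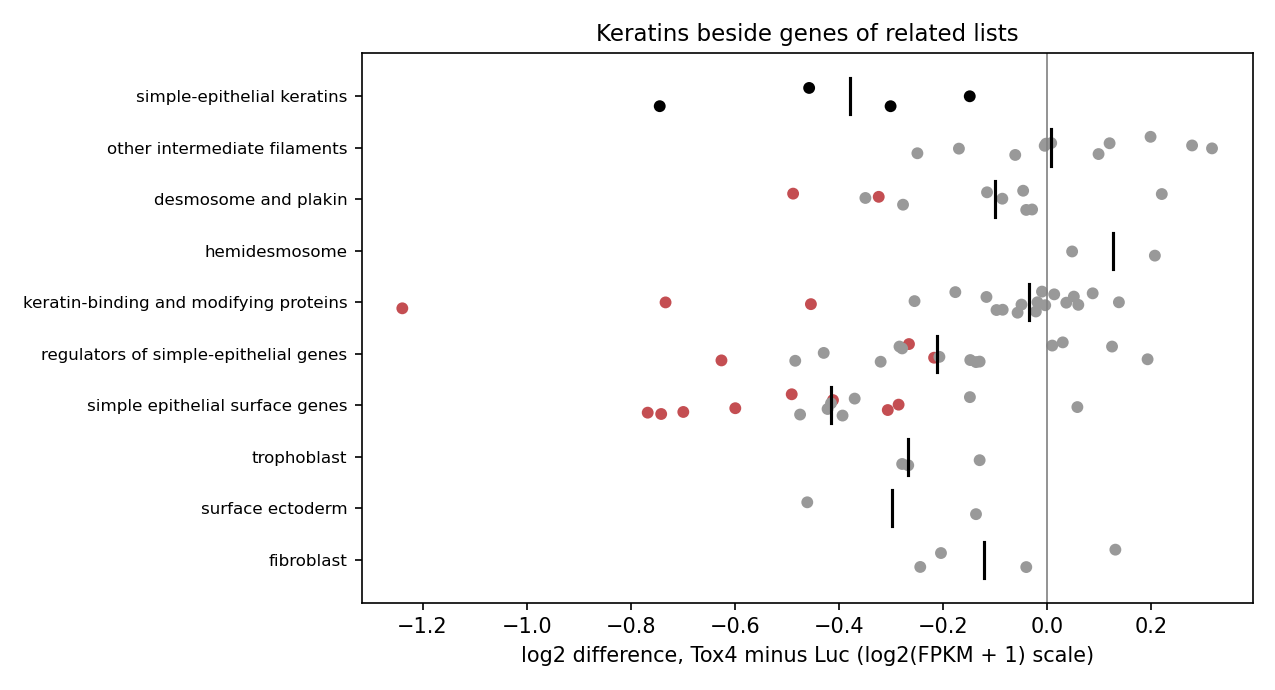
Log2 difference (Tox4 minus Luc, log2(FPKM + 1) scale) of each tested gene, 1 point per gene, in the keratins (black) and 9 related lists, with red for genes past the threshold, grey for the others and a black line at each median. The list of simple epithelial surface genes, which also holds Esrp1, has a median of -0.42 and lies lower than the other intermediate filaments, with a median of 0.01.

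Markers of other cell types, only some of which make these keratins, were examined as well. Of 9 trophoblast markers 4 were in the table and 3 tested; limma called 0, while 2 had an unadjusted p under 0.05 and limma-voom called 1. Their summed level was 13.2 and 11.1 FPKM in the Luc and 10.1 and 9.51 FPKM in the Tox4 libraries. Eomes, which epiblast stem cells also express, had a log2 difference of -0.28 (limma adjusted p = 0.155), and Ascl2, a trophoblast factor, one of -0.27 (limma adjusted p = 0.223). Cdx2, Elf5, Hand1, Plac1 and Tpbpa were not analysed here. The part of these cells in the keratin differences was not tested.

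For visceral and parietal endoderm, 5 of 9 markers were in the table, with a summed level between 5.69 and 6.13 FPKM in the 4 libraries. Dab2, the 1 tested, had a log2 difference of -0.01 (limma adjusted p = 0.96), and neither an unadjusted p under 0.05 nor limma-voom called it. Surface ectoderm was represented by 3 of 8 markers, summed at 6.40 and 5.63 FPKM against 5.75 and 5.43 FPKM. Of the 2 tested, limma called 0, 1 had an unadjusted p under 0.05 and limma-voom called 1: Dlx3, a homeobox factor of ectoderm, had a log2 difference of -0.46 (limma adjusted p = 0.0762), and Grhl3, a grainyhead-like factor, one of -0.14 (limma adjusted p = 0.443). Fibroblast markers, 7 of 8 in the table, summed to 20.8 and 21.0 FPKM with Luc and 19.1 and 20.0 FPKM with Tox4 esiRNA. Of the 4 tested, limma called 0, and 1 was past an unadjusted p of 0.05 and was called by limma-voom, Pdgfrb (-0.24, limma adjusted p = 0.124). Among the 6 epiblast markers Sox2 was higher (0.24, limma adjusted p = 0.0355), a call that ended without Luc replicate 1 (0.179), Luc replicate 2 (0.176) or Tox4 replicate 1 (0.0653), with no filter (0.0558) or with no intensity trend (0.113). The other 5 were not past the threshold. The summed epiblast markers lay between 1049.0 and 1081.9 FPKM, with the groups overlapping.

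The genes around the keratins were compared as well, by position on the chromosome, a choice made after the data were seen. The 3 tested genes on each side of each member gave 13 different genes that are no members. Limma called 0 of them, 1 had an unadjusted p under 0.05 and limma-voom called 0. Their log2 differences ran from -0.27 to 0.53 with a median of -0.03. Genes that were not tested were passed over, so these neighbours need not be adjacent genes. After Krt18, Eif4b, a translation initiation factor with its start 45.6 kb away, was at 307 and 309 against 302 and 299.7 FPKM (-0.03). Beyond Eif4b, Tenc1 was at a log2 difference of 0.03 and Spryd3 at -0.15. After Krt19, Eif1, another translation initiation factor with its start 171 kb away, was at 174 and 166 against 159 and 173 FPKM (-0.03). Hap1, also after Krt19, was at 0.08. The 3 tested genes before Krt19, Gm11940, Gm11557 and Gm11560, were at -0.24, -0.13 and -0.27. The highest value was that of Gm10039, 213.5 kb from Krt19 (0.53, limma adjusted p = 0.0598), on 73 reads. Krt8 and Krt18, with 23697 bases between them and no tested gene in the gap, were both lower.

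**Figure D5:**
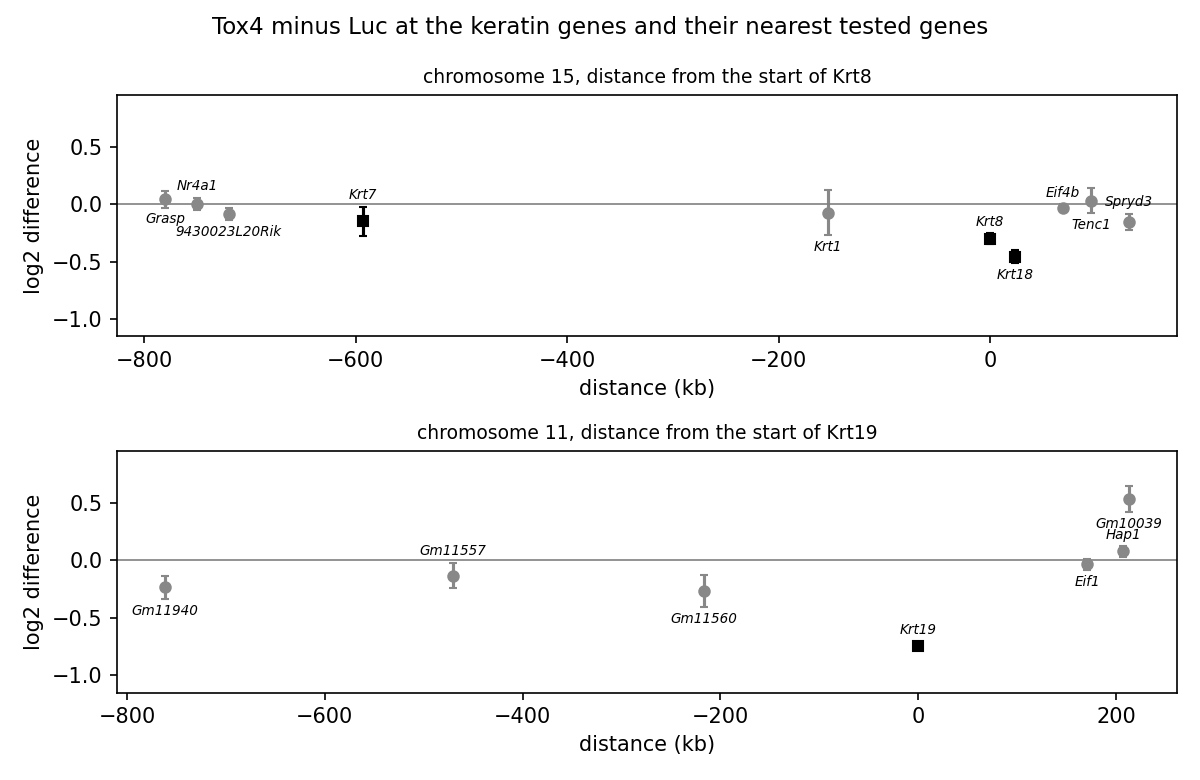
Log2 difference (Tox4 minus Luc, log2(FPKM + 1) scale, bars are standard errors) of the keratins (black squares) and their nearest tested genes (grey circles), against the distance in kb between gene starts, from Krt8 on chromosome 15 and from Krt19 on chromosome 11. Krt8, Krt18 and Krt19 lie under their neighbours, which run from -0.27 to 0.53.

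The genes whose values over the 4 libraries were most like the keratins' mean profile were found by Euclidean distance between centred log2(FPKM + 1) values, among 8811 genes with a higher group mean of at least 5 FPKM. The nearest was Cldn3, a claudin of tight junctions (distance 0.00577), at 6.44 and 6.24 against 4.29 and 4.76 FPKM. Espn, an actin-bundling protein (0.0356), Anxa2, an annexin (0.0426), Mt1, a metallothionein (0.0436), and Trib3, a pseudokinase (0.0438), followed. The members' own distances from their mean were 0.083 for Krt18, 0.135 for Krt8, 0.334 for Krt7 and 0.339 for Krt19, so the mean profile was closest to Krt18. Since these genes were chosen for their likeness over the same 4 libraries, their differences of -0.40 to -0.44 are no further result.

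Reads of 2 members may be shared with similar copies. Krt8 has a processed pseudogene, Krt8-ps, with 98.6% identity over 941 bases, and Krt18 has one, Gm5200, with 90.2% identity over 1269 bases, neither of them analysed here. How reads with several matches were treated is not given in the sources used here, so the levels of Krt8 and Krt18 are uncertain to that extent. No transcript of another gene reached 90% identity over 200 bases with Krt7 or Krt19. Exons of Krt7 share 77 bases and exons of Krt8 share 101 bases with genes on the opposite strand, and those of Krt18 and Krt19 share 0.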

How the data were processed

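Per the labels, polyadenylated RNA was sequenced from 2 Luc and 2 Tox4 esiRNA libraries, and the groups were taken from the titles. The authors deposited FPKM values of 15429 genes, and the 4 library files were identical to the series table. CASAVA 1.8, STAR 2.3.0e and GRCm38.p1 stand in the submitters' processing notes. Not given in the sources used here were the counting program, the annotation, the use of strand and the treatment of reads with several matches.

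The smallest whole reads were worked back from FPKM for 100% of genes (largest relative error of the rebuilt FPKM 5.59e-15, with reads taken as whole within 0.0001). Where a gene's reads and length share a common factor, the true reads and length are a multiple of those given, which the values cannot settle. The implied gene lengths grew with read number, from a median of 5.15% of exon bases at up to 10 reads to 83.1% above 10000, so levels are less comparable between genes where reads are few. Totals of these smallest whole reads were 19008803, 14998194, 14739221 and 12778044. Intervals are exact and cover counting error only.

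The 12403 genes averaging 1 FPKM or more were tested on log2(FPKM + 1) with limma 3.58.1 in R 4.3.3 (two-sided, intensity trend fitted), with no covariate and Benjamini-Hochberg adjustment, at a threshold of 0.05. Differences on this scale understate those of low genes. The fit and the recovery of reads were tested on simulated data: the recovery missed such common factors, more calls were false than the threshold allows, and small changes were mostly missed. Replicates differed by more than sampling noise (chi-square per degree of freedom 1.62 for Luc and 1.92 for Tox4).

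The members and the 13 gene lists were chosen with earlier results of these data known. Named were the members, Tox4, other keratins of at least 1 FPKM, up to 4 called genes per list or the 2 most abundant where none was called, and the 5 nearest profiles, with symbols of the Gm, LOC, Rik and -ps forms passed over. Krt17, Pou5f1, Nanog and Dsp fall outside this rule and were named after their values were seen. So were the neighbours Eif4b, Tenc1, Spryd3, Eif1, Hap1, Gm11940, Gm11557, Gm11560 and Gm10039. Gata6 and Col1a2 fall under the rule, but their own values are not printed. Alternatives were other pseudocounts, filters and scalings, no intensity trend, a replicate block, each library left out, and limma-voom on the reads. The ratio by coding transcript length was added after seeing the data. Genes came from GENCODE M21, in which 98.7% of identifiers were found, promoters from RefSeq (3 of the 4 members matched) and similar transcripts from blastn 2.17.0.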

Additional observations from a re-analysis of the deposited data

How the results depend on the processing

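The members' median log2 difference was -0.38 and stayed between -0.33 and -0.42 as single libraries were left out, and the type II to type I difference between 0.33 and 0.45. Of the 3 members called, 1 to 3 were called with a library left out and 1 with no intensity trend. Of list genes that are no members, 18 were called, 7 with no trend, 3 to 15 without a library and 33 by limma-voom. All calls numbered 559 (234 higher, 325 lower). They numbered 348 (146 and 202) with no filter, 841 (365 higher) with a mean of at least 5 FPKM and 78 (33 and 45) with no trend. Limma-voom on the reads made 1468 (740 and 728). Without a library there were 61 to 437 (27 to 176 higher, 34 to 296 lower). A fit without 1 library takes its spread from the other group's pair alone. Otherwise the cause was not tested. With the replicate block 556 genes were called and the same 3 members. The block ended the calls of Jun and Klf6 and changed no other named gene's call. Same-numbered libraries did not deviate together (r = -0.036 over genes, with 2 pairs), so the numbers were not taken as pairs. Only part of the 32 named genes other than members had a call, so losses are not shares of 32. Most of these calls ended without Luc replicate 1 or without Luc replicate 2, and 12 ended with no trend. None of the named genes' called differences changed sign. Of those not past the threshold, Krt1 (-0.07) ran from -0.28 to 0.13 as single libraries were left out, above 0 without Luc replicate 2 and without Tox4 replicate 1 (0.097), and Dab2 (-0.01) from -0.087 to 0.064, above 0 without Tox4 replicate 2. Among the 4 members, Krt7 had the fewest reads worked back, 345 and 244 per group.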
